A study of Drosophila melanogaster with 2 samples.

Results

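The nuclear tRNA genes of Drosophila melanogaster were followed through the binding map of D1, a chromosomal protein with AT hooks, small domains that grip the minor groove of A/T-rich DNA. The members were the genes of the dm6 annotation whose symbol begins with tRNA:, with the mitochondrial ones left out, and the rule used no measured value. It gave 295 of 18358 annotated genes without transposable elements, 290 of them annotated as tRNA and 5 as pseudogenes. Binding was measured by ChIP-seq with an anti-GFP antibody in whole pupae of 1 group, of an age of 24 hours, with 2 biological replicates. The animals came from a transgenic line that stably expresses D1 with GFP fused to its C-terminus. The labels give no promoter for the fusion and no sex, and a whole animal mixes all its cell types. The data were lists of 30000 peaks for replicate 1, for replicate 2 and for both pooled, and the authors' IDR set, 3388 peaks chosen by the irreproducible discovery rate, which compares the ranks of peaks in the replicates. Since there was no second condition, every value here is a description, and no test was run. Depth is unknown because the files hold peaks and no reads. Peak signals were computed by the authors on a scale that is not given here, and they are compared only within a list.

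A tRNA carries an amino acid to the ribosome and reads a codon with its anticodon, and a fly symbol gives the amino acid, the anticodon, the sequence family and the copy in that order. RNA polymerase III transcribes tRNA genes from a promoter that lies inside the gene. The factor TFIIIC binds the internal A and B boxes, TFIIIB is then placed upstream of the start, and transcription ends at a run of T just past the gene. Many tRNA genes exist as identical copies spread over the genome and often stand in small clusters. D1 is known from A/T-rich satellite repeats.

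The DNA at the peaks is shown first, because the base composition around these genes changes over a few bases. The 5 windows hold the summits of IDR peaks that lay 0 to 100 bp from their nearest tRNA gene. They are NCBI's Release 6 reference sequence, 5′ to 3′ along the strand of the gene, with the tRNA gene in capitals and its surroundings in lower case. The positions are chr3L:5356502-5356794 on the minus strand for tRNA:Val-TAC-1-2, chr3R:17619876-17620092 on the plus strand for tRNA:Pro-TGG-1-2, chr2L:8541472-8541683 on the minus strand for tRNA:Asp-GTC-1-4, chr2L:2009095-2009301 on the plus strand for tRNA:Gln-CTG-2-2 and chr3R:17620084-17620276 on the minus strand for tRNA:Ala-AGC-2-3, all in dm6.
tRNA:Val-TAC-1-2: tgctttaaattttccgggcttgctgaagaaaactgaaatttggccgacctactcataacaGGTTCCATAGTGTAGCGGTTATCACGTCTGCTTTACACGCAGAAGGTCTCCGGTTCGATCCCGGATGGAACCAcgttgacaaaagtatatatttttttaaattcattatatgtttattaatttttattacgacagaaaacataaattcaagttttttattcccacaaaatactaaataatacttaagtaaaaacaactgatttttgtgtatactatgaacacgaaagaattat
tRNA:Pro-TGG-1-2: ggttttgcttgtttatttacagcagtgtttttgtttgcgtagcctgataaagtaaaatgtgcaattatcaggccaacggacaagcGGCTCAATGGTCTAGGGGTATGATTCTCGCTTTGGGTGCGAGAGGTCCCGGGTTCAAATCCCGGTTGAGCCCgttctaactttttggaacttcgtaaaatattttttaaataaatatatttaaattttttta
tRNA:Asp-GTC-1-4: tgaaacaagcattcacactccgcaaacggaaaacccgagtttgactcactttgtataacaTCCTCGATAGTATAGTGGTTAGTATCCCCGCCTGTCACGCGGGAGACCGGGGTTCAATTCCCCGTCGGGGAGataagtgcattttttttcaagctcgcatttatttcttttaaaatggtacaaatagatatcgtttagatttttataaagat
tRNA:Gln-CTG-2-2: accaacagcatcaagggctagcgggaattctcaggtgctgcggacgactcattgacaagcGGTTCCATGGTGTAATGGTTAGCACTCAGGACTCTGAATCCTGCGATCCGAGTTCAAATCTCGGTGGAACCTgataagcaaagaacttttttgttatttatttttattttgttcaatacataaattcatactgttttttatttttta
tRNA:Ala-AGC-2-3: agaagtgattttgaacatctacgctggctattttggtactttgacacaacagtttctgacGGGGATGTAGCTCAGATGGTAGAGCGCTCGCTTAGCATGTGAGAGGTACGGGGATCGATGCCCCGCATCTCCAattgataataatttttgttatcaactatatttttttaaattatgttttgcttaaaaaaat

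In each window the capitals are the G/C-richer stretch. The gene in the tRNA:Val-TAC-1-2 window was 46.6% A and T (AT content), and the lower-case flanks shown were 74.5%. The tRNA:Ala-AGC-2-3 gene was 41.1% AT between flanks of 75%, and the tRNA:Gln-CTG-2-2 gene was 50% AT between flanks of 66.7%. The first TTTT came 19 bp past the valine gene, 9 bp past the proline gene, 10 bp past the aspartate gene, 15 bp past the glutamine gene and 12 bp past the alanine gene. Counted from the first base shown, the summit was base 233 at the valine gene, which occupies bases 61 to 133, and base 61 at the proline gene, which occupies bases 86 to 157. It therefore lay in the A/T-rich tail past the valine gene and just before the proline gene. At tRNA:Asp-GTC-1-4 and tRNA:Gln-CTG-2-2, each at bases 61 to 132, the summits were bases 152 and 147, in the lower-case tails close to the terminators. At tRNA:Ala-AGC-2-3 the summit was base 132, the last base but one of the gene at bases 61 to 133, which was the single IDR summit inside a tRNA gene. The nearest replicate 1 summit lay 123 bp from it. The most common peak width was 420 bp, so a summit does not place binding to the base.

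A summit of the pooled list lay within 500 bp of 200 of the 295 tRNA genes (67.8%), against 35% of all 18277 genes on the chromosomes analysed. Replicate 1 alone gave 194 tRNA genes, against 37.9% of all genes, and replicate 2 alone gave 193, against 35.9% of all genes. The totals differed by 1 gene (mean 193.5, SD 0.707, n = 2), but the genes in them were not all the same. A summit stood beside 168 of the tRNA genes in both replicate lists, and 164 had one in the pooled list as well. No summit of any of the 3 long lists was found beside 73 tRNA genes.

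The shorter IDR set had a summit within 500 bp of 37 tRNA genes (12.5%), against 12.3% of all genes, so by distance from the nearest edge of the gene the share was near that of all genes. The 37 genes were reached by 27 distinct peaks, because neighbouring genes shared peaks. Most other genes are far longer than a tRNA gene and offer more sequence to a summit, while the tRNA genes were 71 to 186 bp long. Measured from the 5′ end, which removes gene length, an IDR summit lay within 500 bp of 36 tRNA genes (12.2%), against 6.41% of all genes. A pooled summit lay within 500 bp of the 5′ end of 196 tRNA genes (66.4%), against 24.8% of all genes. Among the 1198 other genes of up to 200 bp, 29 (2.42%) had an IDR summit and 209 (17.4%) a pooled summit by the gene edge. Bases within 500 bp of a summit made up 2.36% of the sequence for the IDR set and 17.8% for the pooled list.

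The share by the 5′ end depended on the set of peaks. Among the 1694 highest IDR peaks, the upper part of the set, the tRNA genes with a summit numbered 10 by the 5′ end (3.39%), against 3.24% of all genes, and 11 by the gene edge (3.73%), against 7.21% of all genes. With as many of the highest peaks of each replicate alone as the IDR set holds, 30 tRNA genes (10.2%) had a summit in replicate 1, against 12.5% of all genes, and 39 (13.2%) in replicate 2, against 12.4% of all genes. Of these, 23 were found in both replicates. By the 5′ end the counts were 29 (9.83%) in replicate 1, against 6.47% of all genes, and 38 (12.9%) in replicate 2, also against 6.47%. Leaving out the pseudogenes gave 36 tRNA genes and the same number of distinct peaks, 27.

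Other short noncoding genes were set beside them. Small nucleolar RNA genes, whose products guide the modification of ribosomal RNA, had an IDR summit at 6 of 269 genes (2.23%) and a pooled summit at 50 (18.6%). Small nuclear RNA genes, many of whose products work in splicing, had an IDR summit at 4 of 32 genes (12.5%) and a pooled summit at 12 (37.5%). In the pooled list the tRNA genes had the highest share of these gene classes, and in the IDR set the snRNA and tRNA genes had about the same share.

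**Figure D1:**
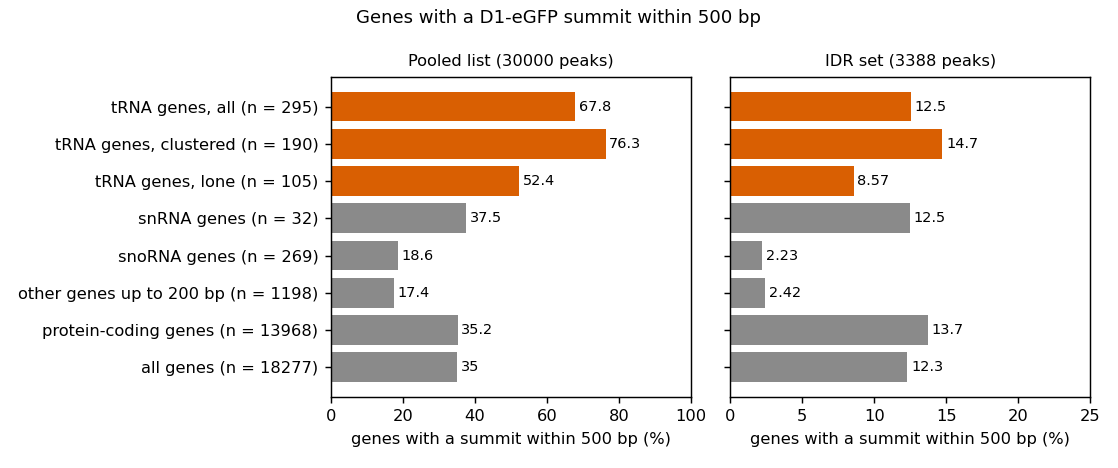
Percent of genes with a D1-eGFP summit within 500 bp of the gene, in the pooled list (left) and in the IDR set (right, a shorter axis), for tRNA genes (orange) and for other gene classes (grey), with the number of genes in brackets. The tRNA genes reach 67.8% in the pooled list, above the other classes, and 12.5% in the IDR set, close to all genes at 12.3%.

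The 27 IDR peaks had a median signal of 191 (lowest 143, highest 343), against a median of 201 over the 3361 other IDR peaks, and 9 of the 27 (33.3%) were among the 1694 highest, against 50.1% of the other IDR peaks. Among pooled peaks, the 201 beside tRNA genes had a median signal of 72.7, against 64.0 for the 29799 other pooled peaks. Those 201 peaks were spread over the whole rank range. In steps of 6000 ranks from the top of the pooled list, 59, 41, 47, 28 and 26 of them fell in each step.

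The 10 highest IDR peaks stood beside genes for arginine, tyrosine, proline, glutamine, glutamate, lysine and valine tRNAs. The peak nearest tRNA:Arg-TCG-2-4 had a pooled signal of 343, with 146 in replicate 1 and 136 in replicate 2. The peak nearest tRNA:Tyr-GTA-1-8 had a pooled signal of 341, with 202 in replicate 1 and 144 in replicate 2. Both lay on 3R in clusters and near the start of another gene, at 251 bp from pyd, which encodes a scaffold protein of cell junctions, and at 231 bp from CG8036. The lone gene tRNA:Pro-CGG-2-3 on 3L had a peak with a pooled signal of 332, with 132 in replicate 1 and 213 in replicate 2. The lone gene tRNA:Gln-TTG-2-1, the single tRNA gene on X with an IDR peak, had a pooled signal of 284, with 155 in replicate 1 and 131 in replicate 2. These 4 peaks stood apart from the rest, since the fifth, at tRNA:Glu-CTC-2-2 and the pseudogene beside it on 2R, had a pooled signal of 230, with 95.3 in replicate 1 and 146 in replicate 2.

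The remaining peaks came down in small steps. The lone gene tRNA:Pro-CGG-2-2 on 3L had a pooled signal of 228, with 109 in replicate 1 and 119 in replicate 2. The lone gene tRNA:Lys-TTT-2-1 on 3R had a pooled signal of 227 and 154 in replicate 2, while the nearest replicate 1 summit lay 107 bp away, beyond the 100 bp within which replicate summits were matched. At tRNA:Arg-ACG-1-3 on 2R the values were 215 in the pooled list, 74.2 in replicate 1 and 124 in replicate 2. This lone gene had a second IDR peak, with 160 in the pooled list, 37.3 in replicate 1 and 117 in replicate 2. The 2 summits lay 160 and 401 bp from a start of EcR, the gene of the ecdysone receptor, and a further IDR peak, of signal 157, lay inside EcR at tRNA:Asn-GTT-1-3, where the 200 bp at the summit had 55.5% AT, the lowest of the 27 peaks. The peak past tRNA:Val-TAC-1-2 had a pooled signal of 208, with 107 in replicate 1 and 88.5 in replicate 2, and a second peak before the same gene had 147, 78 and 63.0 in those lists. The tenth peak, at tRNA:Pro-AGG-1-2 on 2L, had a pooled signal of 199, with 95 in replicate 1 and 116 in replicate 2. Of these 10 peaks, 5 had the start of another gene within 500 bp.

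**Figure D2:**
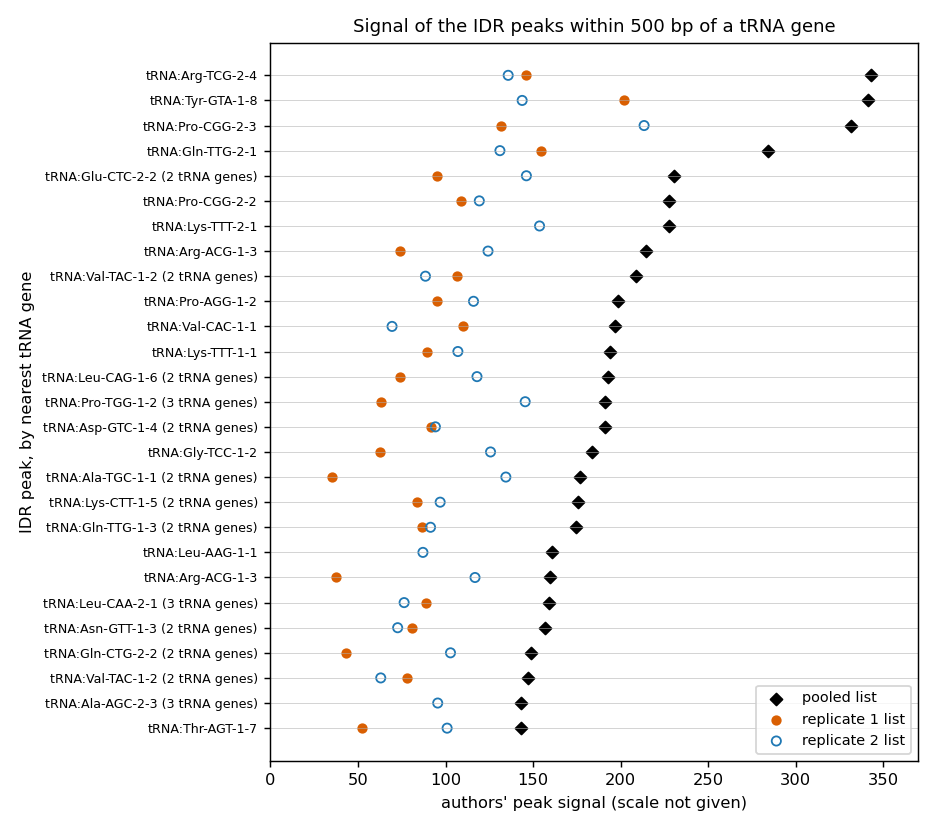
Authors' peak signal (horizontal axis, scale not given) of the 27 IDR peaks within 500 bp of a tRNA gene, ordered by pooled signal and named by the nearest tRNA gene, with the number of tRNA genes within 500 bp where it is above 1. Black diamonds are the pooled list, filled orange circles replicate 1 and open blue circles replicate 2. The pooled signals run between 343 and 143, and 3 peaks have no replicate 1 summit within 100 bp.

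The spread between replicates at these peaks was wide. The log2 ratio of replicate 1 to replicate 2 averaged -0.39 (SD 0.69 over 24 peaks, -1.95 to 0.66), against -0.19 (SD 0.53) over 3090 other IDR peaks, and replicate 1 had the higher value in 8 of the 24. The widest gap was at tRNA:Ala-TGC-1-1 on 2R, with 34.9 in replicate 1 and 134 in replicate 2. At the 3 peaks with no matched replicate 1 summit, those at tRNA:Lys-TTT-2-1, tRNA:Leu-AAG-1-1 and tRNA:Ala-AGC-2-3, the nearest one lay 107, 106 and 123 bp away.

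The rule split the members by whether another tRNA gene stood within 1 kb. By this measure 190 genes formed 71 clusters of up to 7 genes, and 105 genes were lone. Of the clustered genes 145 (76.3%) had a pooled summit within 500 bp, and of the lone genes 55 (52.4%). An IDR summit lay beside 28 clustered genes (14.7%), through 17 distinct peaks, and beside 9 lone genes (8.57%), through 10 distinct peaks. In the highest peaks of replicate 1 the shares were 12.1% of clustered and 6.67% of lone genes, and in those of replicate 2 they were 14.7% and 10.5% in the same order. The clustered genes had the higher share in both replicates, but among the 1694 highest IDR peaks the order turned, with 3.16% of clustered and 4.76% of lone genes.

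Counted by site, with a cluster or a lone gene as 1 site, 24 of 176 sites (13.6%) had an IDR peak and 112 (63.6%) a pooled peak. An IDR peak stood at 15 of the 71 clusters (21.1%) and at 9 of the 105 lone genes (8.57%). A pooled peak stood at 57 clusters (80.3%) and at 55 lone genes (52.4%). A cluster offers more sequence to a summit than a lone gene does, and its part in the difference was not tested. The flanks of 500 bp on each side averaged 63.7% AT at clustered genes (SD 3.30) and 61.9% at lone genes (SD 4.23).

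The cluster of tRNA:Ala-AGC-2-2, tRNA:Pro-TGG-1-2 and tRNA:Ala-AGC-2-3 on 3R had IDR summits beside all its genes. They span 479 bp, and all 3 lay within 500 bp of 2 IDR summits, whose peaks overlap. The peak just before the proline gene had a pooled signal of 191, with 63.1 in replicate 1 and 145 in replicate 2. The peak at the end of tRNA:Ala-AGC-2-3 had a pooled signal of 143 and 95.5 in replicate 2. Nearby, the pair tRNA:Val-CAC-1-1 and tRNA:Pro-TGG-1-1 had an IDR peak 230 bp before the valine gene, with a pooled signal of 196, and pooled peaks of 102 and 48.6 that were not in the IDR set.

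**Figure D3:**
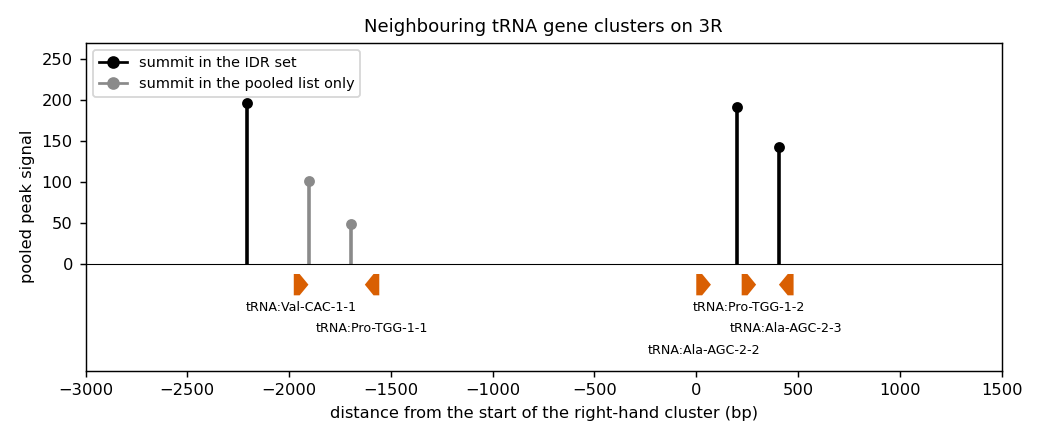
Map of 2 neighbouring tRNA gene clusters on 3R, with the distance from the start of the right-hand cluster in bp on the horizontal axis. Orange boxes are tRNA genes drawn to scale and pointing along their strand, and vertical lines are summits whose height is the pooled peak signal, black in the IDR set and grey in the pooled list only. The right-hand cluster of 3 genes holds summits of 191 and 143, and the left-hand pair has summits of 196, 102 and 48.6.

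The other cluster with 3 genes beside an IDR summit was the group of 5 isoleucine and 2 leucine genes on 2R, inside ATP8A. All 7 genes had a pooled summit within 500 bp, through 4 peaks. The single IDR peak of that cluster, past tRNA:Leu-CAA-2-1, had a pooled signal of 159, with 88.7 in replicate 1 and 76.3 in replicate 2, and also served tRNA:Ile-AAT-1-3 and tRNA:Ile-AAT-1-4. For tRNA:Ile-AAT-1-5, tRNA:Ile-AAT-1-6 and tRNA:Ile-AAT-1-7 the highest pooled signal within 500 bp was 107, with 57.1 in replicate 1 and 67.3 in replicate 2. For tRNA:Leu-CAA-1-1 it was 91.8, with 24.9 in replicate 1 and 62.9 in replicate 2. One cluster thus held peaks on both sides of the IDR boundary.

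Just under that boundary, the highest pooled peak beside a tRNA gene had a signal of 140 and served both tRNA:Ala-CGC-1-3 and tRNA:Ala-CGC-1-2. Its replicate 2 signal was 86.8, and the highest replicate 1 signals within 500 bp were 46.2 and 43.5. The next, at the lone gene tRNA:Thr-AGT-1-4, had a pooled signal of 135, with 57.9 in replicate 1 and 76.4 in replicate 2. On the distance scale, the IDR member farthest from its summit was tRNA:Pro-CGG-2-2 at 444 bp, and the nearest gene outside the limit was tRNA:Pro-TGG-1-1 at 579 bp. In the pooled list the same edge lay between tRNA:Gly-GCC-1-10 at 488 bp and tRNA:Leu-AAG-1-3 at 523 bp.

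The amino acids differed in how many of their genes had a summit. Glutamine genes had the highest IDR share, 5 of 12, through 3 distinct peaks, followed by alanine and proline with 4 of 17 each. Asparagine and valine had 2 of 10 and 3 of 15, leucine 4 of 22, isoleucine 2 of 12 and lysine 3 of 19, and another 6 amino acids had 1 to 3 genes each. The replicates differed here. In their own 3388 highest peaks, replicate 1 and replicate 2 gave 3 and 5 glutamine genes and 3 and 4 proline genes. Alanine had 0 genes in replicate 1 and 6 in replicate 2, and asparagine had 2 and 0. No IDR summit stood beside any of the 20 serine, 8 phenylalanine, 8 tryptophan, 7 cysteine, 6 histidine, 6 elongator methionine or 6 initiator methionine genes, or beside the 1 selenocysteine gene. The counts per amino acid are small and genes of 1 cluster share peaks, so no order among them was tested. In the pooled list the serine genes had 14 of 20, cysteine 5 of 7 and both methionine groups 3 of 6, so most of the amino acids with no IDR summit were still represented there.

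Tryptophan was the exception among the larger groups. None of its 8 genes, at 6 sites on 2L and 2R, had a summit within 500 bp in the pooled list or in either replicate list. Their nearest pooled summits lay 1285 to 19640 bp away. Their flanks were 62.1% AT (SD 4.20), against 63.1% (SD 3.75) over all tRNA genes, and within 500 bp of them a median of 91.7% of the 31-base words were unique in the genome, against 92.2% over all tRNA genes. The glycine genes tRNA:Gly-GCC-1-9, tRNA:Gly-GCC-1-12 and tRNA:Gly-GCC-1-13 stand in clusters with tryptophan genes on 2R and had no pooled summit within 500 bp either. The single selenocysteine gene was 9762 bp from a pooled summit. The highest pooled shares were those of isoleucine with 11 of 12 genes, asparagine with 9 of 10, alanine with 15 of 17 and glutamine with 10 of 12.

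**Figure D4:**
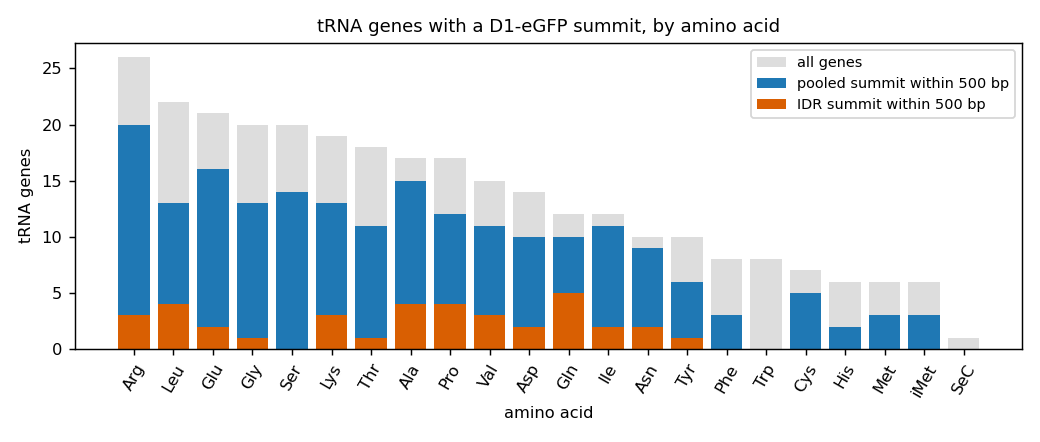
Number of tRNA genes for each amino acid (whole bar, vertical axis), with those that have a pooled summit within 500 bp in blue and those that have an IDR summit within 500 bp in orange (SeC is selenocysteine, iMet the initiator methionine). Glutamine has 5 of 12 genes beside an IDR summit, serine has 0 of 20, and the 8 tryptophan genes have no summit in either list.

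By chromosome, an IDR summit stood beside 11 of 79 genes on 3R, 13 of 100 on 2R, 6 of 49 on 3L, 6 of 41 on 2L and 1 of 26 on X. In the pooled list the shares were 74.7% on 3R, 66% on 2R, 69.4% on 3L, 68.3% on 2L and 50% on X. The X genes had the lowest share in both lists, with 1 IDR peak. Shares of all genes are not given here by chromosome, so whether the low share on X is particular to tRNA genes was not tested. No member lay on chromosome 4 or Y.

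Summits stood on both sides of the genes and inside them. Of the 27 IDR peaks, 13 had the summit upstream of the nearest tRNA gene, at a median of 195 bp, 13 downstream, at a median of 99 bp, and 1 inside. Of the 201 pooled peaks, 89 were upstream, 92 downstream and 20 inside. The density of pooled summits around the 5′ ends reached 1.19 summits per gene and kb in the bins at -300 to -201, 100 to 199 and 200 to 299 bp, against 0.224 per kb over the chromosomes. In the same 3 bins the IDR density was 0.237, 0.203 and 0.203, against 0.0254 per kb. The bin at 0 to 99 bp had 1.12 pooled summits per gene and kb, and the bin at -100 to -1 bp had 0.915. In the IDR set these bins had 0.136 and 0.102. The bin at 0 to 99 bp holds most of the gene and also the first bases past it, so it does not give the density inside the gene alone. Neighbouring clustered genes count the same summit more than once here. The lone genes, which do not share, peaked at 0.952 pooled summits per gene and kb in both bins at 100 to 299 bp.

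**Figure D5:**
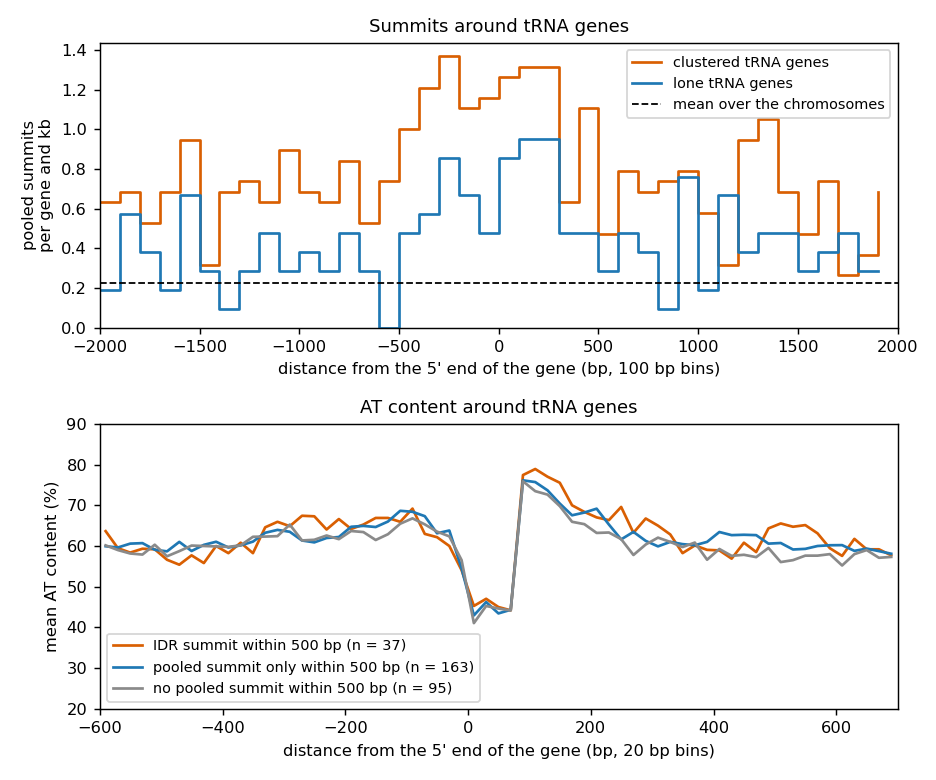
Top, pooled summits per gene and kb in 100 bp bins by distance from the 5′ end of the gene, for clustered and lone tRNA genes, with the mean over the chromosomes dashed. Bottom, mean AT content in 20 bp bins for genes grouped by the summits within 500 bp of them. Summits of both gene groups are densest within 500 bp of the 5′ end, where lone genes reach 0.952, and the AT content falls inside the gene and is highest just past it in all 3 groups.

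Base composition turned sharply at the gene ends. The gene bodies averaged 41.9% AT and the 500 bp flanks 63.1% (SD 3.75 over 295 genes). The last 50 bp before the 5′ end averaged 59.5% AT (SD 8.98), and the first 50 bp past the 3′ end 76.2% (SD 8.11). That tail includes the terminator, and 292 of the 295 genes (99.0%) had TTTT within 40 bp of the 3′ end, at a median of 10 bp, against 31.9% of the other genes of up to 200 bp. The tail was A/T-rich whether or not a peak was near, at 77.5% AT in genes with an IDR summit, 76.6% in those with a pooled summit only and 75% in those with none.

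The wider flanks followed the same order. They averaged 64.1% AT beside an IDR summit (SD 3.14, 37 genes), 63.5% beside a pooled summit only (SD 3.56, 163 genes) and 62.0% with none (SD 4.06, 95 genes). When the 295 genes were ordered by flank AT content and cut into 4 bins of 73 or 74 genes, a pooled summit stood beside 54.1%, 67.6%, 74.0% and 75.7% of the genes from the lowest to the highest bin. The IDR shares were 6.76%, 13.5%, 13.7% and 16.2% in that order. Both shares were lowest in the least A/T-rich bin, whose flanks had 49.7% to 60.9% AT, and the highest bin had 65.7% to 73.9%. In each replicate's own 3388 highest peaks, the bins from lowest to highest had 2, 6, 7 and 15 genes in replicate 1. In replicate 2 they had 5, 13, 9 and 12, so the order above the lowest bin differed between replicates.

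The 200 bp at the IDR summits beside tRNA genes averaged 68.7% AT (SD 6.51, 27 peaks), against 66.5% (SD 6.89) at the 3361 other IDR peaks. The corresponding means for pooled peaks were 63.6% (SD 7.35) beside tRNA genes and 62.1% (SD 8.13) elsewhere. IDR summits downstream of a tRNA gene had 71.4% AT and those upstream 66.2%. The longest unbroken run of A and T in the window averaged 16.3 bp beside tRNA genes and 14.2 bp at other IDR peaks.

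Short words were searched on both strands of the same windows, and they overlap each other. AATAT, a word that also makes up a satellite repeat, was in 22 of 27 windows beside tRNA genes (81.5%) and in 74.9% of the other IDR windows. TTTTT was in 96.3% and 85.9%, and AAAAAAAA in 22.2% and 18.8% of the windows in the same order. ATATATAT was in none of the 27 windows and in 4.91% of the others. The B box, searched as GGTTCGA, then 2 bases of any kind, then C, was present exactly in 146 of the 295 genes. It lay in 1 of the 27 windows and in 28 of the 201 pooled windows, against 0.268% of other IDR and 0.218% of other pooled windows. Windows beside tRNA genes can hold the gene, and the other summits lie more than 500 bp from one. The direction of this difference was thus fixed by the choice of windows.

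Identical copies of a tRNA gene differ only in their surroundings. The 295 genes had 100 distinct sequences, and 43 of these were present in 2 or more copies, 238 genes in all. An IDR summit stood beside some copies and not others in 18 of these families, beside no copy in 24, and beside both copies of tRNA:Val-TAC-1. The 13 identical lysine genes headed by tRNA:Lys-CTT-1-1 had 1 copy beside an IDR summit and 10 beside a pooled one. The 13 identical glycine genes headed by tRNA:Gly-GCC-1-1 had 0 and 7. Copies with the same gene sequence thus fell on both sides in 18 of 43 families.

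Within the 18 mixed families, flank AT content was higher beside the copies with an IDR summit in 12 and lower in 6. The largest gaps ran both ways. For tRNA:Leu-AAG-1 the copy with a summit had flanks of 65.2% AT and the other copies 58.0%, and for tRNA:Pro-CGG-2 the values were 68.9% and 61.8%. For tRNA:Gln-TTG-1 they were 62.8% beside the copies with a summit and 72% beside the other. Copy number also bears on mapping: the median share of 31-base words of a gene body that were unique in the genome was 0%. Within 500 bp of the genes the median was 91.7% for those with an IDR summit, 91.8% for those with a pooled summit only and 95.2% for those with none. Whether reads that match several copies raised or lowered these peaks was not tested.

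Some of the tRNA peaks stood close to the start of another gene as well. Of the 27 IDR peaks 8 had the start of another gene within 500 bp of the summit (median signal 221), and 19 (70.4%) had none (median signal 191). Among the 1694 highest IDR peaks, 4 of these 9 peaks (44.4%) had none. The same share is not given here for the other IDR peaks, so whether it is particular to tRNA peaks was not tested. Seen by gene, an IDR summit lay beside 10 of 46 tRNA genes with another start within 500 bp (21.7%) and beside 27 of 249 without one (10.8%). In the pooled list these shares were nearly equal, at 67.4% and 67.9%. Of the 137 tRNA genes inside a protein-coding gene 14 had an IDR summit (10.2%), and of the 158 outside 23 (14.6%), while the pooled shares were 68.6% and 67.1%. The 16 genes with an intron had 2 with an IDR summit (12.5%), and the 279 without had 35 (12.5%).

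The genes that make and use tRNA were looked at by any of their starts, where 7.57% of all genes had an IDR summit within 500 bp and 26.7% a pooled one. Of 21 genes for RNA polymerase III subunits, initiation factors and its regulator, 4 (19%) had an IDR summit and 5 (23.8%) a pooled summit. These were Polr3E, a subunit of the enzyme, with a signal of 378, Brf, a subunit of TFIIIB, with 354, and Polr2H and Polr2K, subunits shared with the other nuclear polymerases, with 228 each. Maf1, a repressor of the enzyme, had a pooled summit of 103 outside the IDR set. The list is short, and its 4 IDR peaks were among the 1694 highest.

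The cytosolic aminoacyl-tRNA synthetases, which load tRNAs with their amino acids, had 0 of 20 genes with an IDR summit and 3 (15%) with a pooled summit, those of HisRS (111), AlaRS (88.2) and GlyRS (72.2). Of 15 genes for tRNA processing and modification, 1 (6.67%) had an IDR summit, that of Archease, a cofactor of tRNA ligation, with a signal of 153. Pooled summits stood at 3 (20%), with 83.6 at Tsen54, a subunit of the endonuclease that splices tRNA, and 46.7 at La, which binds the ends of new polymerase III transcripts. Of 105 genes listed here as other polymerase III transcripts, most of them 5S rRNA genes, 0 had an IDR summit and 6 (5.71%) a pooled one. Which polymerase transcribes each listed gene was not tested. Split after the values were seen, the pooled summits stood at 5 of the 9 genes that are no 5S gene and at 1 of the 96 5S genes. The highest of these were at snRNA:U6:96Ab and snRNA:U6:96Ac, which share a peak of 140, and at RNaseMRP:RNA, also 140. Identical 5S genes stand in tandem, and the part of mapping in their low share was not tested.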

How the data were processed

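Per the labels, chromatin was sonicated (size range 200 to 800) and precipitated with an anti-GFP antibody. The deposited notes say that peaks were called against a control, for each replicate and for both together. No aligner, peak caller, IDR threshold or signal scale is given in the sources used here. The authors deposited a signal and a summit offset for each peak. The deposited signal values were used as given, and within 1 list only. The IDR set was exactly the 3388 highest of the pooled peaks.

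Summits were compared, 1-based, with Ensembl release 115 genes on the NCBI sequence of Release 6 (dm6), without transposable elements, using Python 3.11.15, numpy 2.4.6 and pandas 2.3.3. A summit counted for a gene within 500 bp of its nearest edge. Genes were clustered where another tRNA gene lay within 1 kb. AT content and words were taken in 200 bp windows, and replicate summits were matched within 100 bp. The spread between replicates is that of each replicate's own 3388 highest peaks. The counting was checked on simulated peaks. Depth is unknown, so no interval is given. Of the symbols listed for the tRNA pathway, 4 matched no gene.

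The members, lists and rules were chosen with earlier results of these data known. Named tRNA genes were those nearest the 10 highest IDR peaks, the 5 closest to an IDR summit, the genes of the 2 clusters with the most genes beside one, the 3 highest lone genes, the 3 highest outside the IDR set and up to 3 members of each list. Other named genes were chosen after their values were seen. Sequence is shown for named genes on 2L, 3L and 3R where 300 bases hold both summit and gene with 60 bp more on each side. Of 2 overlapping windows at tRNA:Val-TAC-1-2, that of the higher peak is shown, and windows elsewhere are not shown here. Alternatives changed the distance, its origin, the overlap, the peak set, the replicate, the cluster distance and the window.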

Additional observations from a re-analysis of the deposited data

How the results depend on the processing

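Of 64 recomputed values, 44 stayed within a set limit and 20 moved further. For counts the limit was a factor of 1.5, and for other values it was the spread between replicates. Counts within that factor could still move beyond the replicate spread. With limits of 250 and 1000 bp, 146 and 221 tRNA genes had a pooled summit in place of 200. An IDR summit lay beside 29 and 47 in place of 37. Taking only the 1694 highest IDR peaks moved the most values: 11 tRNA genes in place of 37, 9 distinct peaks in place of 27, 3.16% of clustered and 4.76% of lone genes in place of 14.7% and 8.57%, a median signal ratio to other IDR peaks of 0.862 in place of 0.950, an AT content of 70.7% in place of 68.7%, an upstream share of 55.6% in place of 48.1% and a share without another start of 44.4% in place of 70.4%. The ratio in that set compares fewer peaks, and the cause of the other shifts was not tested. With a limit of 250 bp, the clustered share was 12.1% and the lone share 5.71%, and with 1000 bp the clustered share was 18.9%. With clusters defined by 500 bp, the clustered share was 16.9%. AT content was 70.6% in 100 bp and 64.5% in 500 bp windows. The share of IDR peaks with no other start was 88.9% within 250 bp and 40.7% within 1000 bp. Each replicate alone gave 12.1% to 14.7% of clustered genes, 67.1% to 68.4% AT content and 65.2% to 66.7% of peaks with no other start. Requiring that both replicate lists cover at least 50% of an IDR peak left all 27 peaks in place. Leaving out the pseudogenes was chosen after seeing the data. No paired analysis was possible because there was 1 group. The limits are 2 replicates, lists cut at a fixed length, an unknown depth and signal scale, and summits that neighbouring genes share.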
